A study of Homo sapiens with 4 samples.

Results

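P-TEFb, the kinase pair that releases paused RNA polymerase II, was examined together with the HEXIM proteins and the 7SK particle that hold it inactive. The 8 genes were chosen by name. They are CDK9, CCNT1 and CCNT2 for the kinase and its cyclins, HEXIM1 and HEXIM2 for the inhibitors, and LARP7, MEPCE and RN7SK for the particle. All 8 are among the 58735 genes of the deposited table, matched by identifier through GENCODE release 44. RNA-seq was performed on 4 libraries labelled NB4, a human cell line from acute promyelocytic leukemia. The control group had 2 libraries from cells without treatment, and the GNE-987-treated group had 2 libraries from the same line. GNE-987 is a bifunctional degrader of BET bromodomain proteins. The dose of 25 nM and the time of 1 day come from the study's text and not from the sample labels, and the labels name no vehicle for the controls. The labels number the replicates but do not say that they came from separate cultures, so the p-values below measure the spread between libraries only, which may be technical.

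P-TEFb consists of CDK9 bound to cyclin T1 or cyclin T2, and it phosphorylates the polymerase tail and the factors that hold the polymerase near promoters. A large share of P-TEFb in cells is kept inactive by HEXIM1 or HEXIM2 bound to the noncoding RNA 7SK, which LARP7 and the capping enzyme MEPCE protect from decay. HEXIM1 RNA is often followed as a readout of drugs that act on BET proteins.

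The values are FPKM, fragments per kilobase of gene divided by a scaling depth for each library, so levels of different genes in a library can be compared per length. Between 12365567 and 19334655 reads fell on genes in each library, with the 2 control libraries the deeper ones. The scaling depth, recovered from the values, was 1.19 and 1.16 times the reads on genes in the control libraries. It was 0.676 and 0.686 times those reads in the GNE-987 libraries. In all 4 libraries it was 0.887 times a depth set by the median ratio of reads between libraries. The deposited values were thus already scaled between libraries by a median ratio. This scaling set the sum of FPKM at 218486 and 227275 in the control libraries and at 624137 and 612335 in the GNE-987 libraries. No spike-in values were used here, so a change in RNA per cell cannot be seen in these values, and in bulk RNA fewer cells of a type and less RNA per cell cannot be told apart. The labelled line was set beside its markers. Of the promyelocyte genes, ELANE and CTSG were listed at 0 and MPO at 0.0246 and 0 FPKM in the control libraries, while the erythroid gene GATA1 stood at 124 and 122 FPKM. Not all promyelocyte genes were absent in control. SPI1, the highest of them, stood at 7.52 and 5.68 FPKM, and AZU1, LYZ and CD33 were also found. The 10 promyelocyte markers summed to 12.9 and 11.2 FPKM in control and 39.0 and 37.3 FPKM with GNE-987, and the 10 erythroid markers to 444 and 422 FPKM and to 790 and 676 FPKM. Summed over each list, the markers thus go against the label, and their part in the results below was not tested.

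The sequences below are shown because the results turn on these genes. They are the promoters of HEXIM1, the member most used as a readout, and of CCNT2 and LARP7, the members that fell, each 300 bases from RefSeq on GRCh38.p14 with 250 bases before the start, and the first 110 bases of the 7SK RNA. In the promoters, capitals mark 5 short motifs on either strand, so that a motif also appears as its reverse complement. The first motif is the box bound by the TATA-binding protein, searched as TATAAA. A second motif, known from many promoters, is the pentamer CCAAT. The GC box known from Sp1 sites was searched as GGGCGG. The E-box known from MYC and MAX sites was searched as CACGTG. The cyclic AMP response element was searched as TGACGTCA. None of these motifs overlapped another one in the windows shown. The window of HEXIM1 is chr17:45148225-45148524 on the plus strand.
HEXIM1: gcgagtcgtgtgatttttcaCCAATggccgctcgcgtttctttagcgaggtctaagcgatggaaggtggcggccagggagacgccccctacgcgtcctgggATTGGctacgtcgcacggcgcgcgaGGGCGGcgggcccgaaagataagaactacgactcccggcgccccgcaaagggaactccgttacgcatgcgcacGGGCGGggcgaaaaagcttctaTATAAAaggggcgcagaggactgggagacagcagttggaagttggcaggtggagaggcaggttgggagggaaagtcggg
The window of CCNT2 is chr2:134918572-134918871 on the plus strand, which begins inside the gene as GENCODE draws it because that annotation holds an earlier start.
CCNT2: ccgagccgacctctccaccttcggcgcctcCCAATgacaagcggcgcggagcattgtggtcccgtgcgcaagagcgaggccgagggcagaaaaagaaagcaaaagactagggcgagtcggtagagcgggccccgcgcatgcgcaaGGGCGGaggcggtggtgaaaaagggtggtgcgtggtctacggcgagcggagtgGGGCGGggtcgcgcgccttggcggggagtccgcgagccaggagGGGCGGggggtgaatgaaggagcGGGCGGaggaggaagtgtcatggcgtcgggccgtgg
The first of 2 RefSeq windows of LARP7 is chr4:112636893-112637192 on the plus strand.
LARP7: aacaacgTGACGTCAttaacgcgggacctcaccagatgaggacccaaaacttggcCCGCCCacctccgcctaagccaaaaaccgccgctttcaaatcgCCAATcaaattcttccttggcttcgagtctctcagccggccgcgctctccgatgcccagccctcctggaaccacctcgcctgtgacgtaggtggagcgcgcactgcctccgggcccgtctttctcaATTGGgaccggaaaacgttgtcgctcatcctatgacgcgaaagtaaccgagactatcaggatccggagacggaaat
The 7SK RNA begins at chr6:52995621-52995730 on the plus strand of GRCh38, read from the GENCODE release 44 transcripts, and its capitals mark GATC, which recurs in the first hairpin of the RNA, known to bind HEXIM proteins.
RN7SK: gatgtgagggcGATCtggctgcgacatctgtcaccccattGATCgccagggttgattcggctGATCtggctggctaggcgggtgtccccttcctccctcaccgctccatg
HEXIM1 has a TATA box match 29 bases before its start, together with 2 CCAAT box and 2 GC box matches. A TATA box match at any place in the window, on either strand, is held by 11.5% of 35116 RefSeq promoter windows. CCNT2 has 4 GC box matches and 1 CCAAT box match, and none of the other 3 motifs. LARP7 has a match to the cyclic AMP response element 243 bases before its RefSeq start, with 2 CCAAT box matches and 1 GC box match. A match to that element at any place in the window is held by 1.85% of windows. The RefSeq start of LARP7 lies inside the gene as GENCODE draws it. ZGRF1, on the opposite strand, begins 82 bases before LARP7 in GENCODE. The match to the element and the GC box match lie inside ZGRF1. CCAAT box matches are in 34.6% of all windows, GC box matches in 45.0% and E-box matches in 7.26%. These matches describe letters and not binding sites. Windows were found for 7 of the 8 genes.

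With GNE-987, CCNT2 and LARP7 were lower at more than a 2-fold difference, and none of the other 5 tested genes passed the thresholds as deposited. CCNT2, the gene of cyclin T2, was 2.84-fold lower and LARP7, the gene of the 7SK-binding La-related protein, 2.22-fold lower. HEXIM1 and HEXIM2 were slightly higher as deposited, with log2 fold changes of 0.33 and 0.41 that turn negative under several other scalings. CDK9, CCNT1 and MEPCE lay between -0.32 and 0.013. RN7SK was listed at 0 in every library.
A gene was called when limma gave an unadjusted p under 0.05 and the groups differed by more than 2-fold, on log2(FPKM + 0.1) and among the 16668 genes averaging 0.5 FPKM or more. By that rule 58.5% of all genes tested were called, 33.6% as higher and 24.9% as lower, and among 10996 protein-coding genes 24.0% as higher and 31.7% as lower. Of the 7 members tested, 0 were called higher and 2 lower. An adjusted p under 0.05 was reached by 4 of the 7 members and by 77.6% of all genes tested. A count of 2 of 7 is near the background share for lower genes, so nothing particular to these genes is read from it. With scaling to GAPDH the split over all genes was 3031 higher and 9738 lower in place of 5602 and 4148, with an equal sum of FPKM 3320 and 8751, with total reads 4170 and 6665, and with quantile normalization 4235 and 5464. The members called lower were then 7 with GAPDH and 6 with an equal sum of FPKM. The median log2 fold change was -0.11 over the 7 members, 0.17 over all genes tested and -0.29 over protein-coding genes. The pseudocount of 0.1 makes fold changes of low genes smaller than they are in FPKM.

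**Figure D1:**
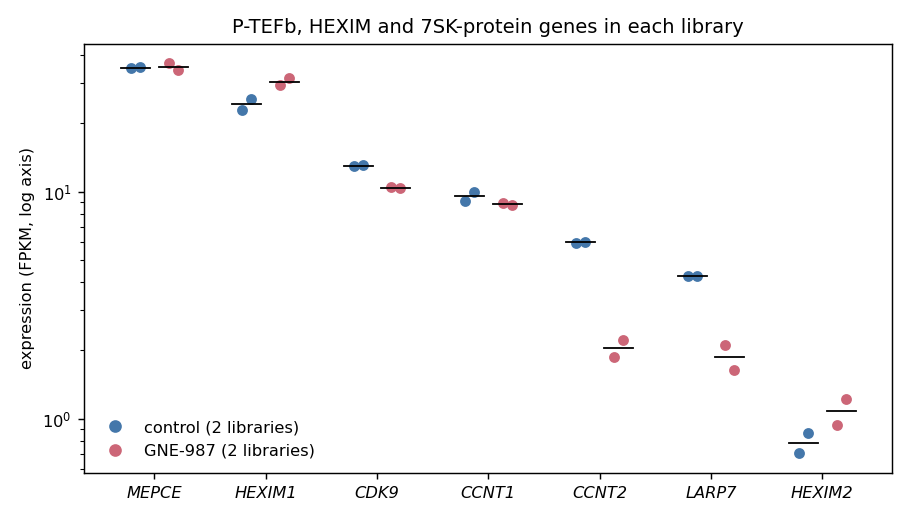
Expression of the 7 tested genes in each library, on a log axis of FPKM, with points for libraries (2 per group) and bars for group means. CCNT2 and LARP7 show the widest gap between the groups, from 5.97 to 2.05 FPKM and from 4.24 to 1.87 FPKM, while the points of MEPCE overlap.

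CDK9, the catalytic subunit, had 13.0 and 13.1 FPKM in the control libraries and 10.4 in both GNE-987 libraries, from 897, 867, 262 and 275 reads. The control libraries were both above the treated ones and the replicates lay close together. The log2 fold change was -0.32 (SE 0.0511, adjusted p = 0.00657, limma with Benjamini-Hochberg adjustment). It was larger than the replicate spread but under the 2-fold threshold, so CDK9 was not called as deposited. With scaling to GAPDH, to total reads and to an equal sum of FPKM it was -2.16, -1.10 and -1.78, and CDK9 was called lower. Whether CDK9 passed thus depended on the scaling. CDK9 (ENSG00000136807) lies at chr9:127785679-127790792 on the plus strand.
CCNT1 encodes cyclin T1, the main partner of CDK9 and the one that HIV Tat binds. Its expression was 9.11 and 9.95 FPKM in control and 8.90 and 8.73 FPKM with GNE-987. The groups did not overlap, yet the gap between them was smaller than the difference between the control replicates. The log2 fold change was -0.11 (SE 0.0719, adjusted p = 0.234, limma with Benjamini-Hochberg adjustment). CCNT1 (ENSG00000129315) lies at chr12:48688458-48716998 on the minus strand.
CCNT2 had 5.91 and 6.03 FPKM in the control libraries and 1.87 and 2.22 FPKM with GNE-987, from 1236, 1211, 142 and 178 reads. Both treated libraries were far below both controls. Control averaged 5.97 ± 0.0827 FPKM and the GNE-987 group 2.05 ± 0.248 FPKM (SD, n = 2 libraries each). The log2 fold change was -1.51 (SE 0.118, adjusted p = 0.000942, limma with Benjamini-Hochberg adjustment), which 16.6% of all genes tested lay below. CCNT2 (ENSG00000082258) lies at chr2:134918235-134959342 on the plus strand. The ratio of CCNT1 to CCNT2 within a library was 1.54 and 1.65 in control against 4.76 and 3.93 with GNE-987.

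HEXIM1, the more abundant inhibitor, had 22.9 and 25.5 FPKM in the control libraries and 29.4 and 31.5 FPKM in the GNE-987 libraries. These values rest on 1894, 2033, 886 and 1002 reads. Both treated libraries were above both controls, a separation seen in 47.5% of all genes tested (41.6% had it in the other direction and 89.1% in either). Control averaged 24.2 ± 1.89 FPKM and the GNE-987 group 30.5 ± 1.48 FPKM (SD, n = 2 libraries each), a log2 fold change of 0.33 (SE 0.0794, adjusted p = 0.0212, limma with Benjamini-Hochberg adjustment). HEXIM1 was not called, and it stood at percentile 53.1 of log2 fold change among all genes tested and at 64.4 among protein-coding genes. As a share of the reads on genes the order was the other way around, at 98.0 and 106 reads per 1000000 in control and 71.7 and 77.9 with GNE-987. The direction of HEXIM1 thus depended on how the libraries were scaled.
HEXIM1 (ENSG00000186834) lies at chr17:45148475-45152099 on the plus strand of GRCh38, and its annotated exon covers the whole span, without an intron. HEXIM2 (ENSG00000168517) follows it at chr17:45160700-45170040 on the same strand and starts 8.60 kb past its end. HEXIM2, the paralog that can also bind 7SK and inhibit P-TEFb, had 0.703 and 0.865 FPKM in control and 0.939 and 1.22 FPKM with GNE-987, from 33, 39, 16 and 22 reads. Both treated values were above the control values but the reads are few. The log2 fold change was 0.41 (SE 0.227, adjusted p = 0.17, limma with Benjamini-Hochberg adjustment), which did not pass the test, and it turned to -0.29 when libraries were scaled to their total of reads. HEXIM1 was 32.5 and 29.5 times as high as HEXIM2 per length in the control libraries and 31.3 and 25.8 times with GNE-987, so the groups overlapped in this ratio.

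LARP7 binds the end of 7SK RNA and keeps it stable. It had 4.26 and 4.23 FPKM in the control libraries and 2.11 and 1.64 FPKM with GNE-987, from 800, 764, 144 and 118 reads. The treated libraries were both below the controls and differed more between themselves than the controls did. Control averaged 4.24 ± 0.0181 FPKM and the GNE-987 group 1.87 ± 0.334 FPKM (SD, n = 2 libraries each). The log2 fold change was -1.15 (SE 0.154, adjusted p = 0.00395, limma with Benjamini-Hochberg adjustment), at percentile 23.2 of all genes tested. The call is close to the threshold, and without GNE-987 replicate 2 the log2 fold change was -0.97 and LARP7 was not called. LARP7 (ENSG00000174720) lies at chr4:112637077-112657696 on the plus strand.
MEPCE, which caps 7SK RNA and stays bound to it, was the most highly expressed of the 7 tested genes. It had 35.0 and 35.3 FPKM in control and 36.7 and 34.4 FPKM with GNE-987, and the groups overlapped. The log2 fold change was 0.013 (SE 0.0516, adjusted p = 0.823, limma with Benjamini-Hochberg adjustment). Relative to MEPCE in the same library, LARP7 stood at 0.121 and 0.12 in control and at 0.0575 and 0.0476 with GNE-987. MEPCE (ENSG00000146834) lies at chr7:100428322-100434126 on the plus strand.
RN7SK, the 328-base noncoding RNA around which the particle forms, was listed at 0 FPKM in all 4 libraries and has no test. The entry RN7SK (ENSG00000283293) lies at chr6:52995621-52995948, and a second entry named 7SK (ENSG00000202198) at chr6:52995620-52995950 covers all of its bases on the same strand. The second entry was listed at 0 in all 4 libraries as well. How reads that fall on both entries were counted is not given in the sources used here. 7SK has no poly(A) tail and the labelled library kit is one for poly(A) RNA, and the part of either in these zeros was not tested. Other RNAs made by RNA polymerase III were listed at 0 too, namely RMRP, RPPH1, RNY1, RNY4 and RN7SL1 in every library. RN7SL2, another RNA of this kind named after its values were seen, was at 787, 291, 1123 and 1345 FPKM, from 1934 to 5435 reads. The level of 7SK can therefore not be read from these data.
The genome holds many 7SK-like copies, and 293 of the table's genes carry an RN7SKP name. Of these, 69 were above 0 in any library and 15 passed the filter on low values. Together they took 81 and 51 reads in the control libraries and 179 and 150 with GNE-987. These are scattered pseudogene copies, and their reads say nothing certain of RN7SK itself.

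Among the 7 genes the order of levels was the same in both groups, MEPCE first, then HEXIM1, CDK9, CCNT1, CCNT2, LARP7 and HEXIM2. Neighbours in this order had ranges apart in each group, except CCNT2 and LARP7 with GNE-987, whose ranges overlapped. This is a description of levels per length, with no test between genes.
Ratios of 2 genes within a library do not depend on a factor that scales the whole library, which covers the scalings used here except quantile normalization. HEXIM1 relative to CDK9 was 1.76 and 1.95 in control and 2.82 and 3.04 with GNE-987, a 1.58-fold higher ratio. HEXIM2 relative to CDK9 was 0.0542 and 0.0662 against 0.0899 and 0.118. As deposited, both inhibitor genes were higher relative to the kinase gene in each treated library than in each control. With quantile normalization this held for HEXIM1 (a log2 fold change of 0.039 beside -0.37 for CDK9) and turned for HEXIM2 (-0.63). CCNT1 relative to CDK9 was 0.701 and 0.761 in control and 0.852 and 0.841 with GNE-987, a small shift of 0.21 on the log2 scale. CCNT2 relative to CDK9 went the other way, from 0.455 and 0.461 to 0.179 and 0.214, a 2.34-fold lower ratio. CCNT1 relative to CCNT2 was 2.71-fold higher and LARP7 relative to MEPCE 2.30-fold lower. The groups did not overlap in 6 of the 7 ratios, and 89.1% of single genes do not overlap either. No test was made of the ratios. An exact permutation test of 2 libraries against 2 cannot give a p below 0.333. These are ratios of RNA and not of protein.

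**Figure D2:**
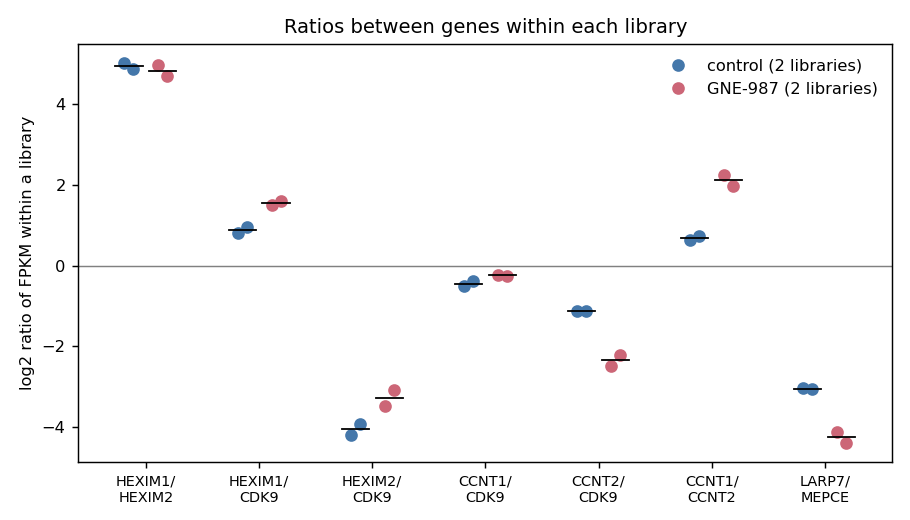
Ratio of FPKM between 2 genes within each library, on a log2 scale, with points for libraries (2 per group) and bars for group means of the log2 ratio. HEXIM1/CDK9 and CCNT1/CCNT2 are higher with GNE-987, by 0.66 and 1.44, CCNT2/CDK9 and LARP7/MEPCE are lower, by log2 differences of -1.23 and -1.20, and HEXIM1/HEXIM2 overlaps.

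The scaling between libraries decided the direction of 4 of these 7 genes, HEXIM1, HEXIM2, CCNT1 and MEPCE. Under 5 other scalings the median log2 fold change of all genes tested moved by -1.77 (GAPDH), -1.40 (equal sum of FPKM), -0.748 (total reads on genes), -0.417 (quantile) and 0.113 (median ratio of FPKM). The median ratio of FPKM is of the same kind as the deposited scaling, taken over the tested genes above 0 in every library. GAPDH itself, a glycolysis gene often used as a reference, stood at 398 and 432 FPKM in control and 1501 and 1499 FPKM with GNE-987. CCNT2 was lower under all 6 scalings, at log2 fold changes between -3.29 and -1.39, and LARP7 between -2.92 and -1.03. HEXIM1 ran from -1.51 to 0.45, HEXIM2 from -1.25 to 0.52 and MEPCE from -1.84 to 0.13. CDK9 stayed below 0, between -2.16 and -0.20, and CCNT1 ran from -1.94 to 0.0074. The place of each gene among all genes tested was computed under the same scalings. HEXIM1 stayed between percentiles 51.5 and 55.8, CDK9 between 39.0 and 48.0, CCNT2 between 15.3 and 22.7 and LARP7 between 22.6 and 27.3. Relative to all genes, then, HEXIM1 lay near the middle and CCNT2 and LARP7 in the lower part under these 6 scalings. Among protein-coding genes, with the deposited scaling, HEXIM1 stood at percentile 64.4, CDK9 at 49.4, CCNT2 at 19.3 and LARP7 at 27.6.

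**Figure D3:**
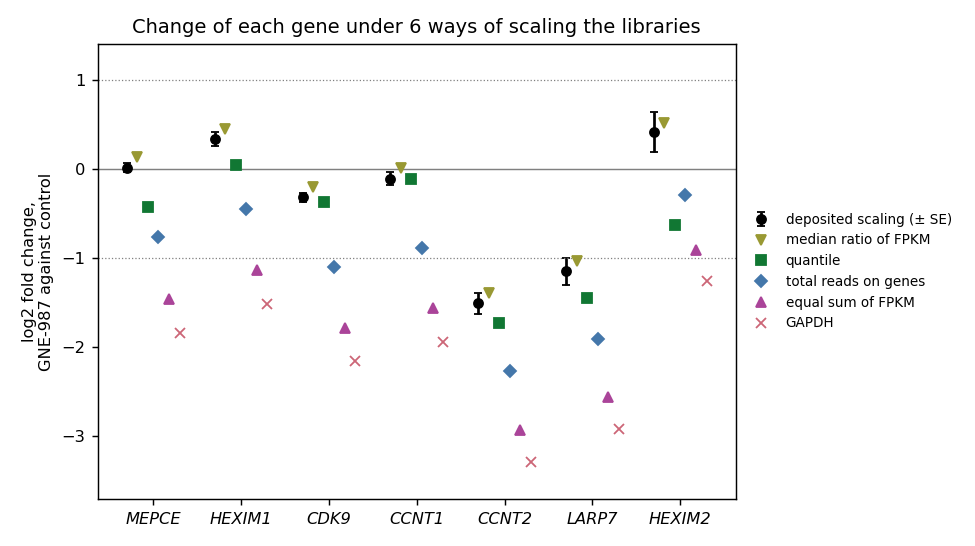
Log2 fold change with GNE-987 for the 7 tested genes under 6 scalings of the libraries (2 per group), with standard errors for the deposited scaling and dotted lines at a 2-fold change. CCNT2 and LARP7 lie below -1 under all 6, while HEXIM1 runs from -1.51 to 0.45.

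**Figure D4:**
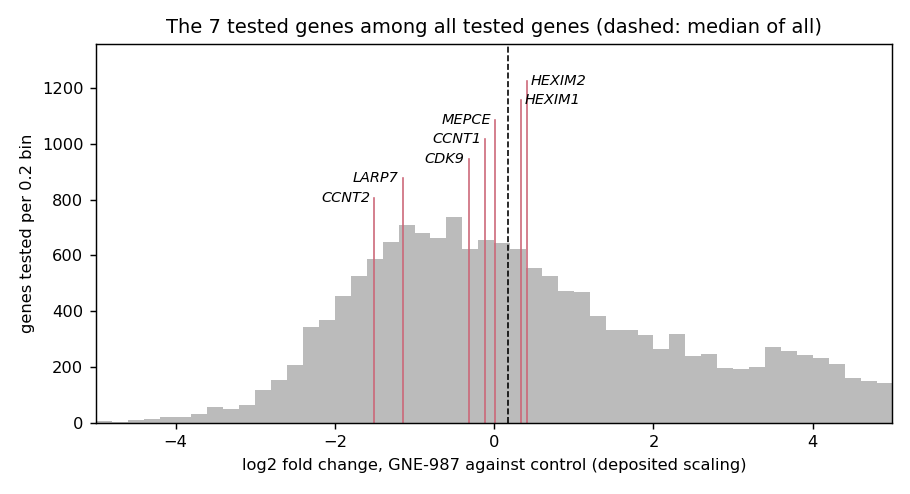
Number of genes tested per bin of log2 fold change, GNE-987 against control with the deposited scaling, with a red line at each of the 7 genes and a dashed line at the median of all genes tested, 0.17. The axis is cut at 5 on either side. CCNT2 (-1.51) and LARP7 (-1.15) lie well inside the left part of the distribution, and the other 5 lie between -0.32 and 0.41.

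Genes of the same pathway were followed in 7 lists with 67 genes, of which 57 were tested, 14 called higher and 15 lower, beside 33.6% and 24.9% of all genes tested. ELL3 and the vault RNAs VTRNA1-1, VTRNA1-2 and VTRNA1-3, among the 14, passed the filter on low values only through the GNE-987 libraries, so their calls are no support. MLLT3, EAF2 and RBM7, among the 15, averaged under 0.5 FPKM with GNE-987 and passed that filter only through the control libraries. Their calls are no support either. The same background shares stand beside the counts of each list below, and nothing particular to a list is read from its count. The median log2 fold change over the 57 genes was -0.047, against 0.17 over all genes tested. All directions of list genes are those of the deposited scaling.
The super elongation complex, in which AFF4 and its relatives carry P-TEFb to active genes, had 4 of 9 tested genes lower and 1 higher, with a median of -0.86. ELL3 had 0.136 and 0.0471 FPKM in control and 1.5 and 1.06 FPKM with GNE-987. MLLT3, a reader of acetylated histones and a fusion partner in leukemia, fell from 1.78 and 1.56 to 0.235 and 0.293 FPKM, a log2 fold change of -2.28. EAF2 had the same log2 fold change, but its treated libraries differed widely, at 0.0676 and 0.640 FPKM from 1 and 10 reads, and its adjusted p was 0.0614 (limma with Benjamini-Hochberg adjustment). It was -1.21 without GNE-987 replicate 1 and -3.36 without GNE-987 replicate 2, and leaving out either control replicate ended the call of EAF2.
Of the factors that release P-TEFb from 7SK or recruit it, 3 of 11 tested were higher and 3 lower, with a median of 0.15. JMJD6, linked to the release of paused polymerase at distal enhancers, rose from 8.69 and 9.11 to 60.5 and 54.6 FPKM, a log2 fold change of 2.68 that fell under the threshold, to 0.83, with scaling to GAPDH. TRIM28, which tethers the 7SK particle at promoters, rose from 206 and 196 to 801 and 818 FPKM, a log2 fold change of 2.01 that lost its call at 0.16 with GAPDH, 0.54 with an equal sum of FPKM and 0.19 with quantile normalization. RBM7, which frees P-TEFb under stress, fell from 2.38 and 2.02 to 0.228 and 0.244 FPKM, and the splicing factor SRSF1 fell from 32.4 and 31.0 to 10.1 and 10.7 FPKM.
Of the 5 hnRNP and helicase genes whose proteins bind free 7SK, 2 were lower and 0 higher. SYNCRIP had a log2 fold change of -1.53 and HNRNPR of -1.22, while HNRNPA1, HNRNPA2B1 and DHX9 did not pass. Among the pausing factors NELF and DSIF, which P-TEFb phosphorylates, NELFA fell with -1.69 and NELFB with -1.24, and SUPT5H rose with 1.29. Scaling to GAPDH or to an equal sum of FPKM gave SUPT5H -0.55 and -0.17. Its call was also lost with total reads (0.51) and quantile normalization (0.91). SUPT4H1, the small DSIF subunit, was at 0.0418, 0.0217, 0 and 0 FPKM, from 2, 1, 0 and 0 reads, and was under the filter. The part of the counting in these low values was not tested, so they do not show that the RNA is absent.
Among 10 factors of the promoter type that 7SK uses, 3 were higher and 1 lower, with a median of -0.18. ZNF143 rose from 2.63 and 2.87 to 21.2 and 21.0 FPKM and SNAPC5 from 7.22 and 5.46 to 43.7 and 50.0 FPKM, while BDP1 fell from 5.24 and 5.64 to 1.97 and 2.15 FPKM. Of 10 other RNA polymerase III transcripts, 8 were at 0 in both control libraries, and 4 passed the filter on low values, 3 of them only through the GNE-987 libraries. VTRNA1-1 was at 0.439, 0, 9.67 and 16.0 FPKM and VTRNA1-2 at 0, 0, 4.03 and 6.37 FPKM, for which no fold is given.
Among 13 other kinases and cyclins of transcription, 3 were higher and 3 lower, with a median of 0.21. CCNH and MNAT1, the partners of CDK7, fell with log2 fold changes of -1.58 and -1.51. CDK8 rose with 1.62 and turned to -0.22 with scaling to GAPDH. The call of CDK8 was also lost with total reads (0.84) and an equal sum of FPKM (0.16). CDK11A rose with 3.12, but it has a near-identical copy, CDK11B, so the division of reads between them is uncertain.

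**Figure D5:**
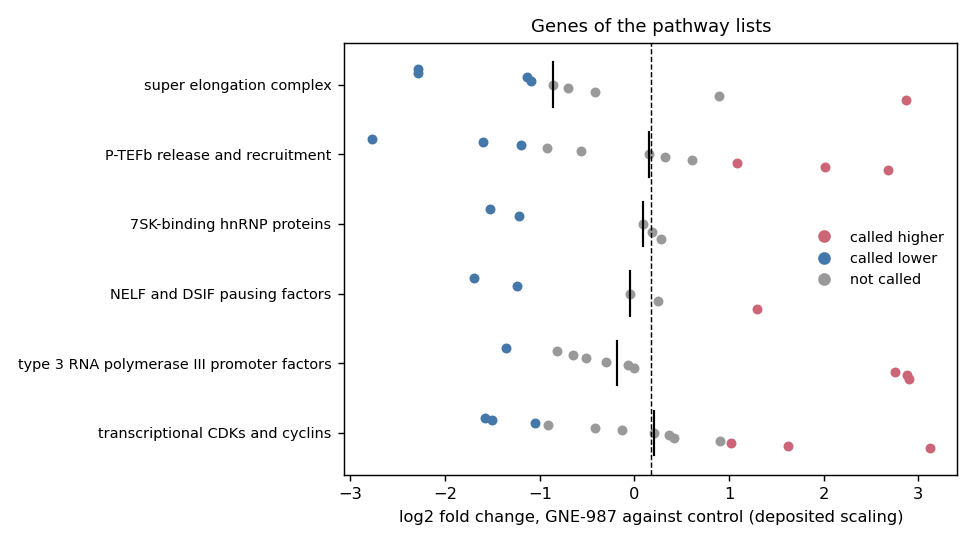
Log2 fold change of each tested gene in 6 of the pathway lists, GNE-987 against control with the deposited scaling, coloured by call, with a bar at each list's median and a dashed line at the median of all genes tested. The list of other RNA polymerase III transcripts is left out because 8 of its 10 genes are at 0 in both control libraries. The super elongation complex has the lowest of the 6 medians, -0.86.

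Genes next to the 8 members were listed within 10 kb, since reads of a neighbour on the opposite strand can be mixed with those of a member where the counting does not use strand. HEXIM2-AS1 overlaps HEXIM1 by 1700 bases and HEXIM2 by 839 on the opposite strand, and was at 0.125, 0.13, 0.516 and 0.814 FPKM, far below HEXIM1, while HEXIM2 stood nearer to it, at 0.939 and 1.22 FPKM with GNE-987. ENSG00000267288, which overlaps HEXIM2, had at most 1 read in a library. ENSG00000276728, 5 bases before HEXIM1 on the opposite strand, and ACBD4 were not called. The reads of HEXIM2 are thus the least certain of the 7 members.
ZCWPW1 overlaps MEPCE by 671 bases on the opposite strand and was at 0.511 and 0.381 FPKM in control and 7.97 and 8.20 FPKM with GNE-987, and its share in the reads of MEPCE was not tested. Past the end of MEPCE, PPP1R35-AS1 was called higher at a log2 fold change of 3.52, from 1 and 10 control reads, and PPP1R35 was not called. ENSG00000241357 had 1 read in each control library and 3 in each GNE-987 library, and passed the filter on low values only through the latter. PPP1R35-AS1 had 2.17 without control replicate 1 and 4.88 without control replicate 2, and its call was lost when either GNE-987 replicate was left out. ENSG00000289690, which overlaps MEPCE on the same strand in GENCODE release 44, and ENSG00000289691 were not analysed here.
ZGRF1 starts 82 bases from LARP7 on the opposite strand, a head-to-head pair, and fell from 1.99 and 1.90 to 0.696 and 0.635 FPKM, a log2 fold change of -1.42 beside -1.15 for LARP7. The microRNA genes inside LARP7 on the opposite strand (MIR302A, MIR302B, MIR302C, MIR302D and MIR367) and their host MIR302CHG had at most 3 reads in any library. CCNT2-AS1 overlaps CCNT2 by 478 bases and had a log2 fold change of 0.29, which was not called and which turned to -0.93 with quantile normalization. MAP3K19, 5.14 kb past CCNT2, was at 0, 0, 0.315 and 0.354 FPKM.
Near CDK9, the downstream gene FPGS had a log2 fold change of -0.23 and was not called, SH2D3C was not tested, and MIR3960 and MIR2861 were listed at 0. KANSL2, downstream of CCNT1, had 0.28 as deposited and -0.50 with scaling to total reads, and was not called. CILK1 and GSTA4, on either side of RN7SK, had 0.63 and 0.48 as deposited, were not called, and turned to -0.13 and -0.22 with scaling to total reads.

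The genes most like HEXIM1 and CDK9 over the 4 libraries were sought among 3404 protein-coding genes averaging 10 FPKM or more, by the distance between log2 values centred on each gene's mean. For HEXIM1 they were LARP4 at a distance of 0.0268, CHD3 at 0.0305, IQGAP1 at 0.0475, SSB at 0.0671 and HMOX2 at 0.0716. For CDK9 they were CCT6A at 0.0194, PYCR1 at 0.0200, EBNA1BP2 at 0.0280, FLOT2 at 0.0352 and EIF4B at 0.0437. The distances are a description over 4 libraries, with no test. Leaving out a library can only make such a distance smaller, so the values that follow do not show how firm the likeness is. CHD3 was at 0.00699 and LARP4 at 0.0165 without control replicate 1, IQGAP1 at 0.0191 without control replicate 2, HMOX2 at 0.0185 without GNE-987 replicate 1 and SSB at 0.0360 without GNE-987 replicate 2. PYCR1 was at 0.00653 and EBNA1BP2 at 0.00823 without control replicate 1, FLOT2 at 0.0116 without control replicate 2, EIF4B at 0.0136 without GNE-987 replicate 2 and CCT6A at 0.0113 and 0.0112 without GNE-987 replicate 1 and 2.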

How the data were processed

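Per the labels, RNA was extracted with Trizol and sequenced after an Illumina TruSeq RNA preparation. The submitters' processing notes name HISAT2 2.0.5 and hg38, and the study's methods name DESeq2 for its own comparison. The authors deposited FPKM values, fragments per kilobase of gene, for each gene and library, which were already scaled between libraries by a median ratio. The counting program, the annotation and any use of strand are not given in the sources used here. Because FPKM are not counts, limma 3.58.1 in R 4.3.3 (linear model, intensity trend, no replicate block) was run on log2(FPKM + 0.1) over 16668 genes averaging 0.5 FPKM or more, and p was adjusted by Benjamini-Hochberg over all of them.
The steps between FPKM values gave back the reads. At GENCODE release 44 exon lengths 53.0% of 32895 genes above 0 gave whole reads within 0.01, and 6 of the 7 tested members did so only at another whole length, so their read numbers are less certain.
Groups came from the labels. The members and gene lists were chosen with earlier results of these data known. Named genes were the members, up to 2 called genes with the largest rise and fall per list, genes within 10 kb of a member, the 5 nearest in pattern to HEXIM1 and to CDK9, and GAPDH. Alternatives were 5 other scalings, other pseudocounts (1 and 0.01), other filters (none, and 1 FPKM), adjusted p, a test against a fold change of 2, a replicate block, limma-voom on recovered reads and leaving out each library. Steps were tested on simulated data. Sequences came from RefSeq and GENCODE.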

Additional observations from a re-analysis of the deposited data

How the results depend on the processing

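The scaling moved most results. All genes called higher were 5602 as deposited, 3031 with scaling to GAPDH, 3320 with an equal sum of FPKM and 8757 without the filter, and those lower were 4148, 9738, 8751 (equal sum) and 6665 (total reads). In that order of scalings (GAPDH, total reads, equal sum), HEXIM1 had log2 fold changes of -1.51, -0.45 and -1.13, HEXIM2 -1.25, -0.29 and -0.91, CDK9 -2.16, -1.10 and -1.78, MEPCE -1.84, -0.77 and -1.45, KANSL2 -1.56, -0.50 and -1.18, CCNT2-AS1 -1.36, -0.41 and -1.02, ENSG00000276728 -1.38, -0.47 and -1.06, CILK1 -1.16, -0.13 and -0.79, and GSTA4 -1.17, -0.22 and -0.83. CCNT1 had -1.94 with GAPDH and -1.56 with an equal sum, and 0.0074 with the median ratio, where PPP1R35 had 0.10. SUPT5H had -0.55 with GAPDH and -0.17 with an equal sum, and CDK8 -0.22 with GAPDH. With quantile normalization HEXIM2 had -0.63, MEPCE -0.43, ENSG00000276728 -1.37, CCNT2-AS1 -0.93 and GSTA4 -0.65. Members called lower were 7 with GAPDH and 6 with an equal sum. Genes of the pathway lists called higher were 7 and 9, and lower 40 and 38, with 26 at total reads.
LARP7 lost its call with a pseudocount of 1 (-0.87) and when tested against a 2-fold change (-1.15), which left 1 member lower in each. Leaving out single libraries, the members called lower were 1 to 2, LARP7 ran from -1.32 to -0.97, MEPCE from -0.032 to 0.059, PPP1R35 from -0.17 to 0.14, CCNT2-AS1 from -0.12 to 0.71, ENSG00000276728 from -0.20 to 0.60, and HEXIM1 to HEXIM2 ran from -0.26 to 0.018. LARP7 was lost without GNE-987 replicate 2.
In the fit with a replicate block, 9853 genes were called, 5667 higher and 4186 lower, and 2 members lower, CCNT2 and LARP7. The same-numbered libraries did not deviate together, with a correlation of 0.00537 over genes. The labels do not say whether these libraries shared a culture or a preparation, and this value cannot show it. Depth limits HEXIM2 most, at 16 to 39 reads.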
